A study of Strongylocentrotus purpuratus and Patiria miniata with 14 samples.

Results

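The data described here are the open chromatin regions around *dll1.a*, the sea urchin gene for the Notch ligand Delta, during development of *Strongylocentrotus purpuratus*. They were taken as every ATAC-seq peak that overlaps scaffold NW_022145611.1 of Spur_5.0 from 35170000 to 35260000, a window that holds R11, a previously tested regulatory element of the gene from 35213721 to 35217000. The window held 60 of the 280526 peaks of the 8 sea urchin lists (652219 peaks in the whole series), and these peaks form 18 clusters of overlapping peaks, numbered 1 to 18 here in order along the scaffold. ATAC-seq uses a transposase to insert sequencing adapters into accessible DNA. Wild-type whole embryos, with no treatment or mutant allele, were collected at 4 times after fertilisation, with 2 replicates each. The early blastula was taken at 11 h (hpf), the mesenchyme blastula at 24 hpf, the larva at prism stage at 66 hpf and the pluteus at 72 hpf. The study's sea urchin late gastrula libraries belong to another deposit and were not used, so statements on every stage cover these 4 times only. The remaining 6 libraries of the series, from a sea star, were not used for this locus.

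Delta is a membrane-bound ligand that activates the Notch receptor on a neighbouring cell, whose cleaved inner part then acts with the DNA-binding protein Su(H) on target genes. In the sea urchin embryo it is known as the signal that the micromere lineage, the cells that go on to build the larval skeleton, sends to its neighbours to specify non-skeletogenic mesoderm, with the transcription factor gene *gcm* among the direct targets. Later it is made by non-skeletogenic mesoderm and by neural cells. R11 is known as a module that drives early *delta* expression in micromere descendants. Because whole embryos were assayed, an element open in few cells and one weakly open in many cannot be told apart.

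The gene was taken to be the one listed in RefSeq as *delta* (gene ID 373299), because the tested element is named for SpDelta and lies beside it. The symbol *dll1.a* itself is not in the gene table, and every distance given here rests on this match. The annotated span runs from 35186000 to 35201201. The annotation used gives no strand and no exons, so which end of the span is the transcription start is not stated here, and its ends are called lower and higher by coordinate. R11 lies 12.5 kb beyond the higher end. The next annotated gene is *LOC584671*, a protein-coding gene of which only the symbol is given, from 35254112 to 35264682. The stretch of 52.9 kb between the genes holds R11 and no other annotated gene. Below *delta*, 34.6 kb separate it from *LOC115919084*. Clusters of peaks lay at *delta*, R11 and *LOC584671* and between them. There was 1 across the lower end of *delta*, 1 inside the gene, 14 between *delta* and *LOC584671*, and 2 at or inside *LOC584671*. Below the lower end of *delta* the first 15.7 kb of the window had no peak in any library. For comparison, windows of 90 kb along all scaffolds held a median of 11 clusters (middle 50% of windows, 4 to 18), and 74.7% of 9999 such windows held fewer than 18.

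**Figure D1:**
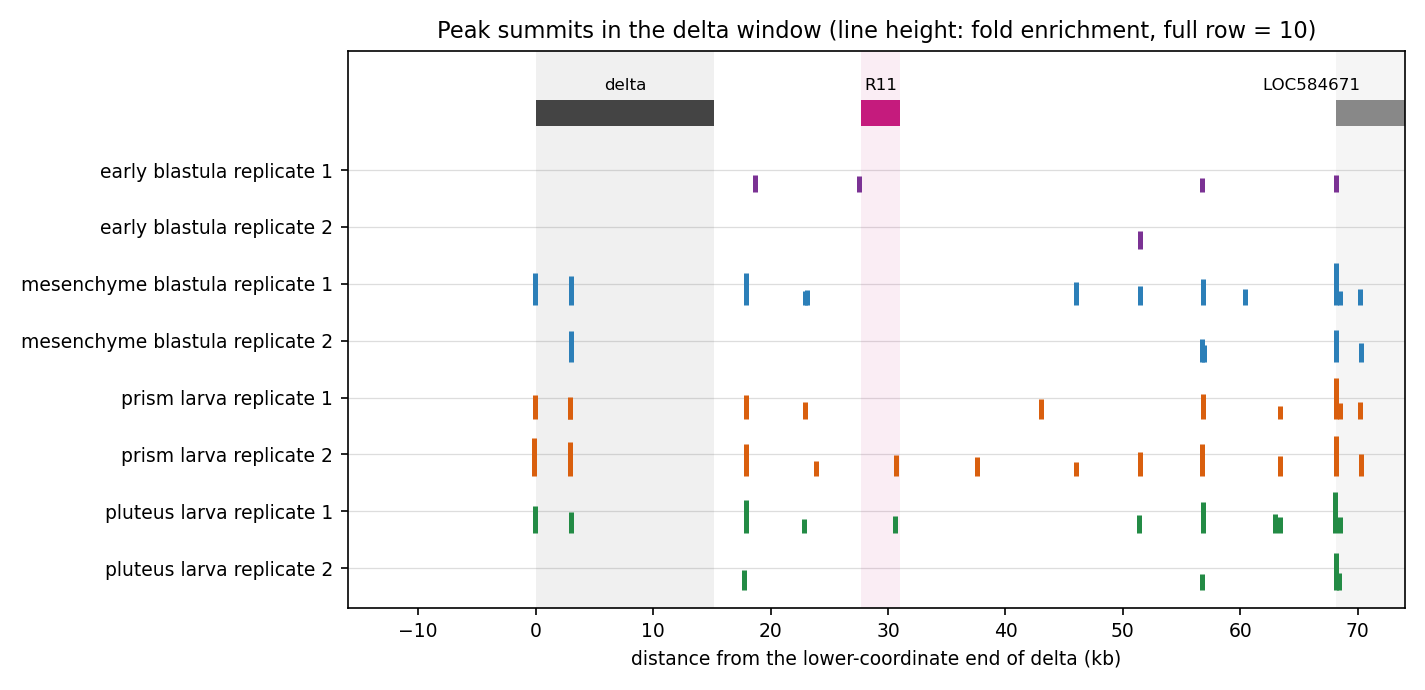
Summits of all 60 listed peaks of the window in the 8 libraries, by distance in kb from the lower-coordinate end of *delta*; the height of each line is the peak's fold enrichment over the local background, with a full row standing for 10. Bars at the top mark *delta*, R11 and *LOC584671*. The tallest lines stand at the lower end of *LOC584671*, R11 has summits in 1 prism and 1 pluteus library only, and the early blastula rows hold 4 summits and 1 summit.

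The 8 lists differ in length, from 19469 peaks (pluteus replicate 2) to 56853 (prism replicate 2), and the median peak was 129 to 132 bp wide at early blastula and 171 to 241 bp at later stages. The largest q in a list was 0.0169 to 0.0451. The lists hold no read counts, so the depth behind a peak is unknown here, and a missing peak is a missing call, not a measurement of closed chromatin. Each peak is given with its fold enrichment, the signal at the summit over the local background of its own library, and with its rank by p within its own list, so that a peak within the strongest 5% is among the first 5% of that library. Fold enrichments of different libraries are set side by side and their sizes were not tested against each other.

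The highest-ranked site of the window lay at the lower end of *LOC584671* and not at *delta*. Cluster 17, from 35253827 to 35254607, was called in 7 of 8 libraries, the exception being early blastula replicate 2. Its strongest peaks had fold enrichments of 9.77 and 7.53 in the mesenchyme blastula replicates, 9.44 and 9.14 in the prism replicates and 9.38 and 8.55 in the pluteus replicates. In the early blastula library that called it, the value was 3.94. The 6 later peaks ranked within the strongest 2.71 to 12.5% of their lists, whereas the early blastula peak ranked within the strongest 45.6%. The position of the site was steady. The early blastula summit fell 2 bp before the end of the annotated span, and the later summits fell from 74 bp before it to 12 bp inside the gene. A weaker peak of the same cluster followed inside *LOC584671*, with its summit 307 to 390 bp past the end of the span, in 1 library of mesenchyme blastula, 1 of prism larva and both of pluteus larva. Its fold enrichments were 3.44 to 3.85, and in prism replicate 2 the main peak itself reached across that stretch.

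Further inside *LOC584671*, cluster 18 (35256152 to 35256445) was called in both mesenchyme blastula replicates, with fold enrichments of 3.78 and 4.56, and in both prism replicates, with 3.90 and 4.99. No early blastula or pluteus library called it. The 4 summits lay within 67 bp of each other, 2119 to 2186 bp inside the gene.

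At *delta* itself, the lower end of the span carried cluster 1, from 35185727 to 35186026. It was called in 4 libraries, namely mesenchyme blastula replicate 1, both prism larva replicates and pluteus replicate 1, with fold enrichments of 7.43, 5.68, 8.82 and 6.27. By p, they stood at the strongest 32.6, 53.0, 25.9 and 44.0%, in the same order. The summits lay 72 to 104 bp outside the span, and the peaks of prism replicate 2 and pluteus replicate 1 reached across its end. No early blastula library called the cluster, and prism larva was the only stage with both replicates. The higher end of the span carried no peak in any library.

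**Figure D2:**
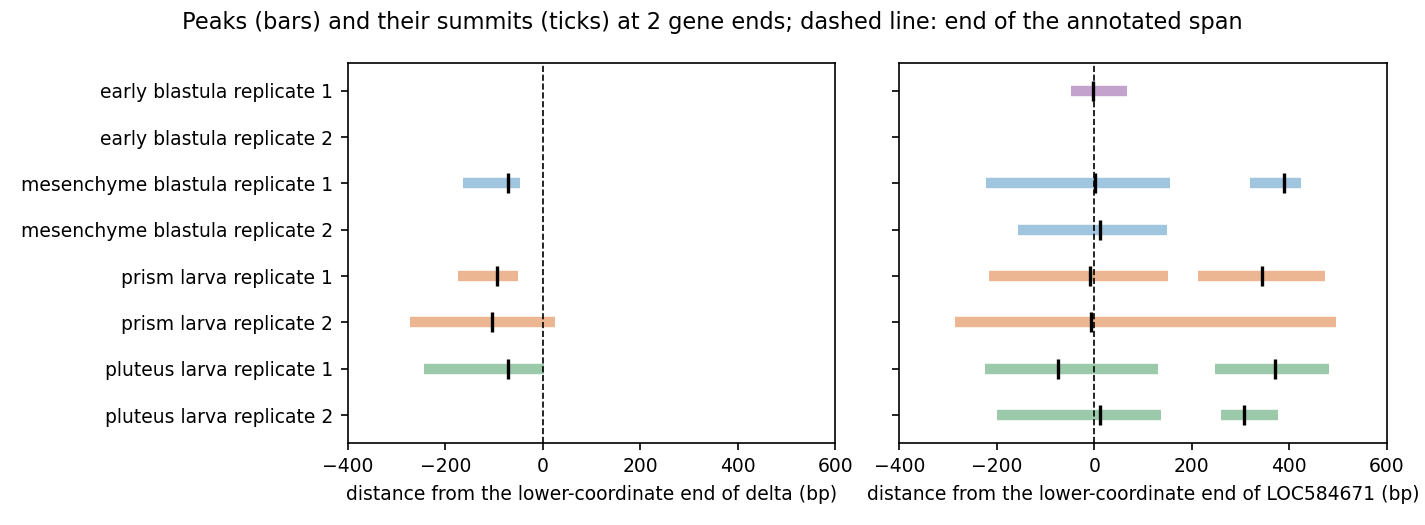
Peaks (bars) and summits (ticks) of cluster 1 at the lower-coordinate end of *delta* (left) and of cluster 17 at the lower-coordinate end of *LOC584671* (right), by distance in bp from the end of each annotated span, with 1 row per library. The *delta* summits all sit outside the span, 72 to 104 bp from its end, in 4 libraries, whereas those of the main *LOC584671* peak sit within 74 bp of its end in 7 libraries.

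A single cluster lay inside *delta*. Cluster 2, from 35188806 to 35189075, starts 2.81 kb inside the lower end and was called in 5 of the 6 later libraries, with pluteus replicate 2 the exception. The strongest peaks had fold enrichments of 6.88 and 7.25 in the mesenchyme blastula replicates, 5.21 and 7.94 in the prism replicates and 4.83 in pluteus replicate 1. Prism replicate 1 split the site into a pair of peaks of 100 bp each, the weaker with a fold enrichment of 4.26. The summits of the cluster were spread over 130 bp. Pluteus replicate 1 ranked its peak only within the strongest 74.6% of its list, against 29.1 to 63.1% in the mesenchyme blastula and prism libraries. The remaining part of the gene body had no listed peak in any of the 8 libraries.

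The nearest site beyond the higher end of *delta* was cluster 3, from 35203594 to 35204169, which starts 2.39 kb past the gene. Its 5 peaks were 246 to 491 bp wide. It was called in mesenchyme blastula replicate 1 (fold enrichment 7.59), in the prism larva replicates (5.51 and 7.28) and in the pluteus replicates (7.58 and 4.63), and in neither early blastula replicate. Both pluteus replicates listed it, but this pair had an irreproducible discovery rate (IDR, estimated from how well the ranks of paired peaks match) of 0.202. That is above the limit of 0.1, whereas the prism pair had one of 0.0165. All IDR values here come from a newly written model run on the deposited lists, not from the study's own IDR peaks. In 4 of the 5 libraries the summits lay within 17 bp of each other, at 35203875 to 35203892, and that of pluteus replicate 2 lay at 35203741. Its ranks ran from the strongest 18.1% (pluteus replicate 1) to the strongest 65.4% (pluteus replicate 2). No other cluster between *delta* and R11 was called in both replicates of any stage. Cluster 5 (35208850 to 35209108) had fold enrichments of 3.10 to 3.99 in 1 library each at mesenchyme blastula, prism larva and pluteus larva. Its strongest peaks ranked low, within the strongest 94.5, 64.0 and 98.8% of those lists in the same order. Clusters 4, 6 and 7 were called in 1 library each.

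The tested element R11 was largely without listed peaks. Cluster 8, from 35216536 to 35216737, was the only one in it and was called in prism replicate 2 and pluteus replicate 1, that is in 2 of 8 libraries and in both replicates of no stage. The prism peak (35216600 to 35216723) had a fold enrichment of 4.75, a q of 4.69e-08 and a rank within the strongest 49.6% of its list. The pluteus peak (35216536 to 35216737) had a fold enrichment of 3.95, a q of 9.52e-05 and a rank within the strongest 79.3%. Their summits lay 311 and 418 bp from the higher end of the element, 107 bp apart, and the peaks covered 202 of its 3280 bp (6.16%). Listed peaks leave most of the genome uncovered, with 4.07 to 14.7 Mb covered by each list. The uncovered part therefore does not set R11 apart, and its share was not tested against other stretches. When every list was shortened to its 19469 strongest peaks, neither of the R11 peaks was left. No peak lay in R11 at early blastula or mesenchyme blastula. The nearest early blastula call, cluster 7 (35213440 to 35213625), ended 0.096 kb before R11, was listed in replicate 1 alone, and had a fold enrichment of 3.60 and a rank within the strongest 49.7%. On the other side, the next peak was cluster 9 (35223393 to 35223625), 6.39 kb beyond R11, in prism replicate 2 alone.

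R11 was set beside the other tested elements of the species that map to a single place, 41 in all with R11. Of these, 15 had a peak in fewer libraries than R11, 5 others also in 2 libraries, and 20 in more; 12 had none and 6 had one in all 8. A longer element can hold more peaks, and R11, at 3280 bp, is longer than all but 5 of the 41, whose median length is 938 bp. Of those 5 longer elements, 2 had a peak in every library. One is the element of *gcml*, the gene that answers Delta/Notch signalling, which spans 12224 bp and had a peak in all 8 libraries. The genes *tbr1* and *alx1* encode transcription factors of the skeletogenic cells, the lineage that first makes Delta. Element C of *tbr1* (1589 bp) had a peak in 2 libraries, as R11 did, but in 1 of mesenchyme blastula and 1 of prism larva. The *tbr1* elements gamma and B had none. CRM1 of *alx1* (500 bp) had a peak in 7 libraries, and the other 3 elements of *alx1* had none. Differences between elements were not tested, and elements of the same gene are not independent.

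**Figure D3:**
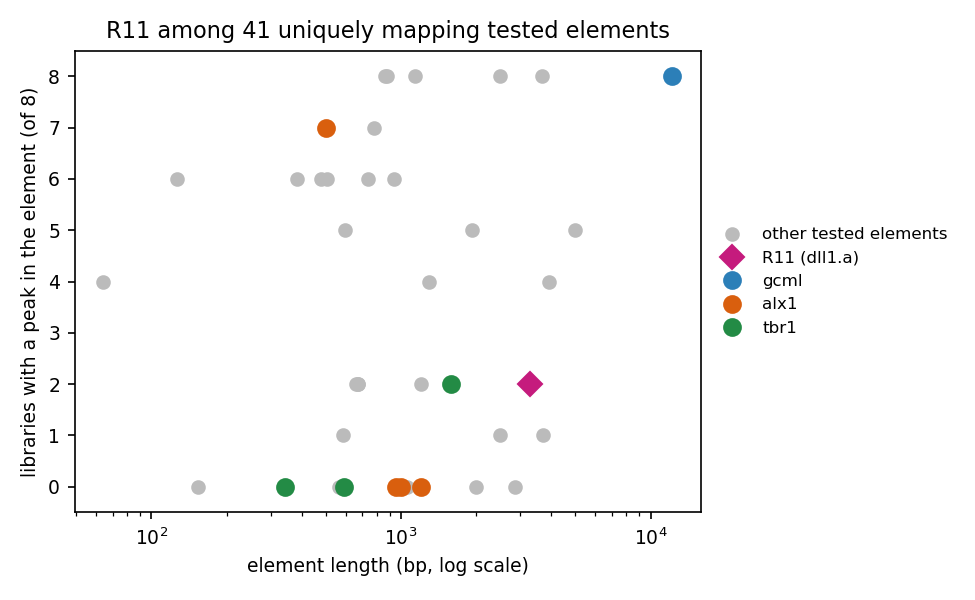
Number of sea urchin libraries (of 8) with a peak in each of 41 uniquely mapping tested elements, against element length in bp on a log scale; each point is an element, and those of *dll1.a*, *gcml*, *alx1* and *tbr1* are coloured. R11 sits at 2 libraries and 3280 bp, below the *gcml* element at 8 libraries and 12224 bp.

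Of the 8 clusters in the 37.1 kb between R11 and *LOC584671*, cluster 13 was called most often. It spans 35242575 to 35242956, 41.4 kb beyond *delta* and 11.2 kb before *LOC584671*, and had a peak in both replicates of all 3 later stages and in early blastula replicate 1. The mesenchyme blastula replicates gave fold enrichments of 6.16 and 5.39, the prism replicates 5.90 and 7.31 and the pluteus replicates 7.04 and 3.71. The early blastula value was 3.11. The pluteus replicates stood far apart in rank, at the strongest 15.5 and 89.5% of their lists, whereas the mesenchyme blastula replicates (27.4 and 31.1%) and the prism larva replicates (27.7 and 14.2%) were closer. The early blastula peak was near the end of its list, within the strongest 90.9%.

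Cluster 16 (35249301 to 35249533), 4.58 kb before *LOC584671*, was called in both prism larva replicates and in pluteus replicate 1 and at no earlier stage. Its fold enrichments were 3.06 and 4.72 at prism larva and 3.54 at pluteus larva. The first of these was near the end of its list, within the strongest 93.7%, and the second within the strongest 28.8%. Cluster 12 (35237264 to 35237625) had a peak in a single replicate of each of the 4 stages. It was the only cluster called in early blastula replicate 2, where its fold enrichment was 4.10 and its rank within the strongest 33.1%, and the later values were 4.48, 5.46 and 4.17. Cluster 11 (35231945 to 35232241) was called in 1 mesenchyme blastula and 1 prism library, with summits 14 bp apart. Its fold enrichments were 5.50 and 3.31. The first ranked within the strongest 40.9% of its list and the second, near the end of its list, within the strongest 96.7%. Clusters 9, 10, 14 and 15 were called in 1 library each, with fold enrichments of 3.82 to 4.71.

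In all, 7 of the 18 clusters (38.9%) had a peak in both replicates of at least 1 stage, namely clusters 1, 2, 3, 13, 16, 17 and 18. Over the 115459 clusters of the sea urchin lists that share was 31.7%. At prism larva, all 7 were called in both replicates (22.4% of all clusters of the genome). At mesenchyme blastula there were 4, clusters 2, 13, 17 and 18 (15.5% over the genome), and at pluteus larva 3, clusters 3, 13 and 17 (11.5%). Early blastula had none, against 8.90% over the genome. With an IDR of at most 0.1, the counts fell to 5 at prism larva, without clusters 2 and 16, to 3 at mesenchyme blastula, without cluster 18, and to 1 at pluteus larva, where cluster 17 alone was left. A further 7 clusters were called in a single library, also 38.9%, against 55.4% of all clusters. No cluster of the window was called in all 8 libraries, as 2.65% of all clusters were. Clusters 12, 13 and 17 had a peak in either replicate at every stage (7.11% over the genome). Clusters 1, 2, 3 and 5 had one at the 3 later stages and none at early blastula (11.1%), cluster 5 in only 1 replicate of each. With counts this small, the shares describe the locus and do not set it apart from other loci. Among the calls at every stage, clusters 13 and 17 rested on early blastula replicate 1, without which only cluster 12 was left. Cluster 12 rested on early blastula replicate 2.

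**Figure D4:**
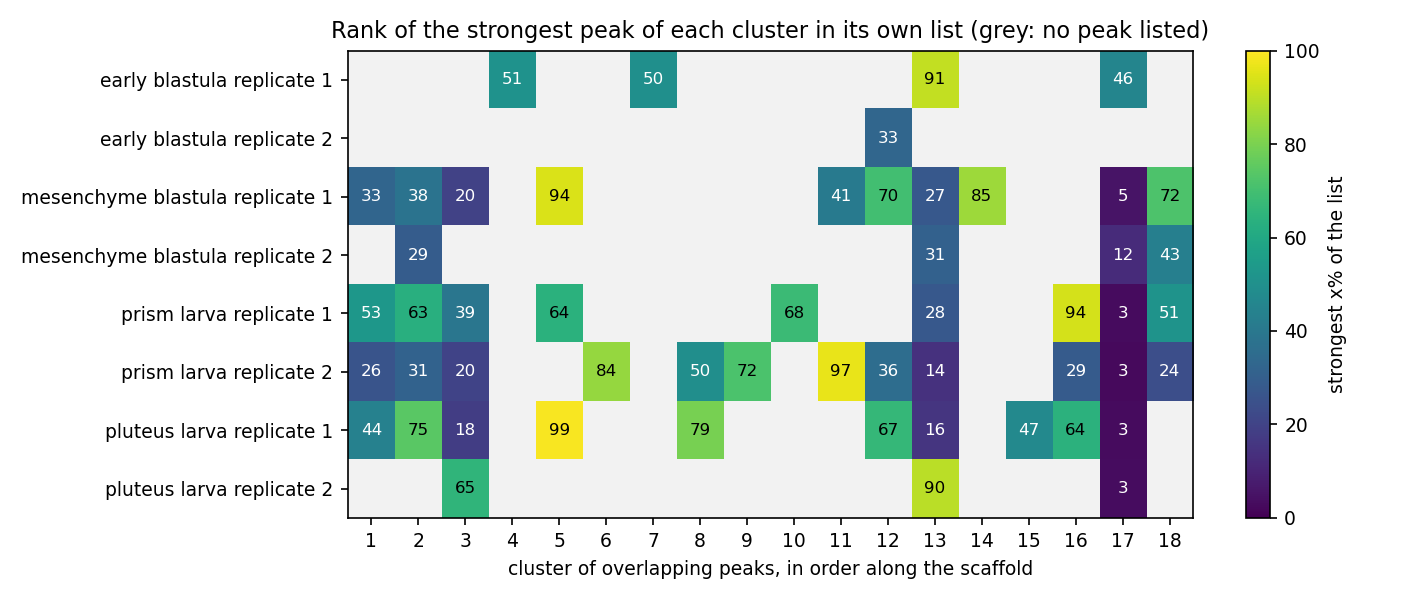
Rank of the strongest peak of each of the 18 clusters (columns, in order along the scaffold) in each of the 8 libraries (rows), as the strongest percent of that library's own list by p; grey cells have no listed peak. Cluster 17 is darkest, within the strongest 2.71 to 12.5% in the 6 later libraries, and R11 is cluster 8, with a peak in 2 libraries.

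The 5 early blastula peaks of the window were few and of moderate to low rank. Replicate 1 listed 4, in clusters 4, 7, 13 and 17, and replicate 2 listed 1, in cluster 12, so that no site was called in both. Their fold enrichments were 3.11 to 4.10 and their ranks within the strongest 33.1 to 90.9% of their lists. Clusters 4 (35204593 to 35204705, 3.39 kb beyond *delta*) and 7 were called at no other stage. Cluster 4 starts 424 bp beyond the end of cluster 3 and did not overlap it.

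Whether the locus took up a different share of open chromatin at each stage was asked of the peak number and of the covered sequence, each set against the library's whole list. In the window the lists held 1.15 and 0.393 peaks per 10000 listed peaks in the early blastula replicates, 3.04 and 1.61 in those of mesenchyme blastula, 3.13 and 2.11 in those of prism larva and 2.89 and 2.05 in those of pluteus larva. Both early blastula libraries lay below the 6 later ones, which overlapped between stages. The stage means were 0.769 ± 0.532, 2.32 ± 1.01, 2.62 ± 0.718 and 2.47 ± 0.594 (SD, n = 2). The difference between stages did not pass the test (exact permutation test over the 105 ways to form 4 pairs, p = 0.229, where the smallest possible p is 0.00952). The covered sequence gave the same order of early and later libraries, with 99.5 and 61.9 bp per Mb covered in the early blastula replicates and, in stage order, 291 and 164, 274 and 246, and 269 and 199 later. It did not pass the same exact permutation test either (p = 0.162), which has the same limits. Replicate 1 had the higher value of both measures at all 4 stages. Whether the replicates were separate cultures is not stated, and the p-values measure only the spread between these libraries, which may be technical. At early blastula, narrower peaks went along with the lower values, and their part in the result was not tested.

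**Figure D5:**
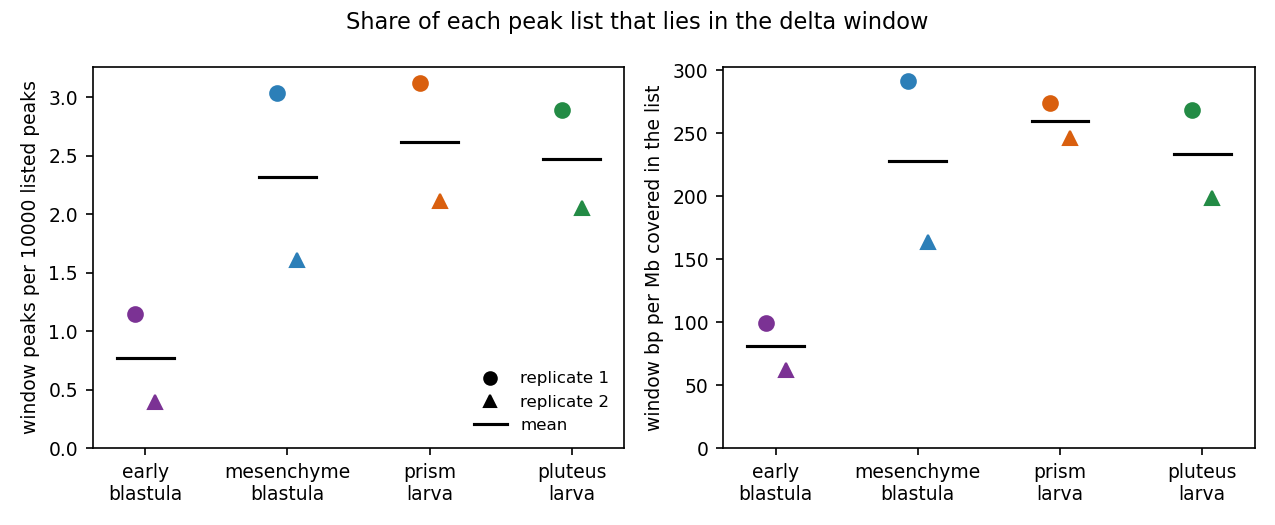
Window peaks per 10000 listed peaks (left) and window bp covered per Mb covered in the whole list (right) for each library, by stage; circles are replicate 1, triangles replicate 2 and lines the mean of the 2. The early blastula libraries sit at 0.393 and 1.15 peaks and at 61.9 and 99.5 bp, below all later libraries, and the 3 later stages overlap.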

How the data were processed

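ATAC-seq peak lists of 8 sea urchin whole-embryo libraries, 4 stages with 2 replicates each, were analysed, and the lists of 6 sea star libraries were only counted. The study's methods describe alignment with Bowtie2, removal of duplicates with SAMtools, an offset of read starts for the transposase, selection of short fragments and peak calling with MACS2. Each list belongs to 1 replicate, and its scaffold names are those of Spur_5.0. Selecting short fragments favours nucleosome-free DNA. Per peak, the authors' peak caller wrote a summit, a score and, over the local background, a ratio called fold enrichment. The deposited p-value and q-value columns are both on the −log10 scale. No read counts were used.

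Scripts ran in Python 3.11.15 (scipy 1.17.1, pandas 2.3.3, numpy 2.4.6, figures with matplotlib 3.10.9). Peaks of all 8 lists overlapping by at least 1 bp formed a cluster. Clustering was checked against bedtools 2.31.1, and the exact test and a newly written irreproducible discovery rate (IDR) model were tested on simulated data. The simulated replicated peaks stood further from noise than those fitted in these data, so the IDR limit was not checked in their setting. Element coordinates were taken as 1-based from the study's list of tested elements. The gene table gives no scaffold for 33490 of 33503 genes, so *delta* and its neighbours were placed by their sorted run of 1660 genes, in which 9 genes that the study pairs with this scaffold stood at matching positions and 0 did not. Named were every cluster called in both replicates of a stage, every cluster in R11, the strongest of each library and the nearest to R11, and the remaining clusters were named after their values were seen. Sequence motifs were not analysed here, since no genome sequence was used. The pathway genes other than those with tested elements were not analysed either, since the annotation used gives no scaffold for most genes. The alternatives were a q of at most 0.001, equal numbers of top peaks, joining within 100 bp, an IDR of at most 0.1, an overlap of 50% of the shorter, leaving out each replicate and the replicate number as a block. The window, the element and the lists were chosen with earlier results of these data known.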

Additional observations from a re-analysis of the deposited data

How the results depend on the processing

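The 18 clusters were 18 with a q of at most 0.001 or with joining within 100 bp, 12 with equal numbers of top peaks (19469 per library) and 16 to 18 with 1 replicate left out. The 7 clusters called in both replicates of a stage numbered 5 to 7 with 1 replicate left out, where a stage left with 1 replicate gave no such call, and 6 with equal numbers of top peaks or an IDR of at most 0.1. The pairs that did not pass this IDR were those of clusters 2 (0.113) and 16 (0.339) at prism larva, cluster 18 (0.288) at mesenchyme blastula, and clusters 3 (0.202), 13 (0.353) and the weaker peak of 17 (0.267) at pluteus larva. The count of 3 clusters called at every stage was 1 with equal numbers of top peaks, 1 to 3 with 1 replicate left out and 7 over the other 3 stages alone, a setting that drops early blastula and was added once the data had been seen. With the IDR it was 0, which says nothing about the IDR threshold, since this rule needs both replicates and early blastula had 0 such clusters. R11 had a peak in 2 libraries, in 0 with equal numbers of top peaks and in 1 to 2 with 1 replicate left out. The exact permutation tests across stages stayed above 0.05. With all libraries, a gap between early blastula and the later stages alone could not bring them below it. These exact tests gave p = 0.0667 for both measures with equal numbers of top peaks, 0.133 and 0.114 at a q of at most 0.001, and p from 0.143 to 0.533 for peak number and from 0.0571 to 0.352 for covered sequence when 1 replicate was left out. Without early blastula the exact p was 0.8 and 0.933, where 15 groupings allow no p below 0.0667, so that test could not pass. With the replicate number as a block the exact permutation tests gave p = 0.125 and 0.208, where the smallest possible p is 0.0417. The numbers share no stated batch, and over all clusters the deviations of same-numbered libraries correlated by -0.0671 to 0.0440 between stages, so the number was not used as a pairing. In both tested measures, however, replicate 1 had the higher value at all 4 stages. The length of each list limits what an absent peak can say.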
